A study of Mus musculus with 6 samples.

Results

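The trypsinogen cluster of mouse chromosome 6 is a run of closely related genes that encode the precursors of the digestive protease trypsin. Its 10 genes were taken from a fixed list: Gm5771, Prss1, Prss2, Prss3, Try4, Try5, Try10, 2210010C04Rik, 1810009J06Rik and Gm10334. They are 10 of the 35527 genes to which the quantified transcripts were summed, and 10 of 10 passed the filter on low counts, which kept 15805 genes. The list was drawn up with results of the same comparison in view, so the levels of its members in the 2 genotypes are given as a description. How many of them the tests over the whole table called is stated once, beside the count for all genes, and supports nothing here. Gm2663 and the pseudogene Gm5409, 2 further trypsinogen genes of the interval, are not on the list. Their values are given as well, and the interval was not searched for others.

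Bulk RNA was sequenced from the whole pancreas of 1-day-old C57BL/6 mice. The wild-type group (WT) holds 3 libraries and the miR216a-/- group (KO), which lacks the microRNA miR-216a, holds 3, each from a mouse of its own. Strain, tissue and age were shared by the groups, and the labels do not say how the allele was made or in which cells it acts. The series is framed around cell proliferation and the endocrine and exocrine function of the pancreas, and the comparison of genotypes asks what the loss of miR-216a changes there.

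Trypsinogens are made by the acinar cells of the exocrine pancreas, stored in zymogen granules and released into the gut. There the protease enteropeptidase cuts a short activation peptide from the front of trypsinogen, after a lysine that follows a run of aspartates, and the trypsin so formed activates the other pancreatic zymogens. Inside the pancreas, trypsin that becomes active too early is held in check by inhibitors such as Spink1 and is associated with pancreatitis. In the mouse the genes lie within the T cell receptor beta locus and have multiplied by duplication. MicroRNAs such as miR-216a, which is abundant in pancreas, bind target RNAs mainly through their seed, bases 2 to 8.

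The 10 genes span 560 kb of chromosome 6 in GRCm38, from base 40964754 to base 41525079, as annotated by GENCODE M21. In this order they are 1810009J06Rik (chr6:40964754-40968435, plus strand), 2210010C04Rik (chr6:41030268-41035509, minus strand), Try4 (chr6:41302269-41305532, plus strand), Try5 (chr6:41311233-41316841, minus strand) and Try10 (chr6:41354105-41357914, plus strand). Prss3 (chr6:41373814-41377678, minus strand), Gm5771 (chr6:41392356-41397230, plus strand), Gm10334 (chr6:41442216-41446145, minus strand), Prss1 (chr6:41458932-41463786, plus strand) and Prss2 (chr6:41521787-41525079, plus strand) follow. Gm2663 lies at chr6:40995830-40999479 on the minus strand, and Gm5409 at chr6:41416912-41419589 on the plus strand. The annotated coding sequence of each of the 10 genes is 738 to 744 bases long.

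The activation site shows how the members differ in the part of the precursor that enteropeptidase recognises. Each line gives 30 coding bases from exon 2 of 5, read from the GENCODE M21 transcript, with capitals for the unbroken run of aspartate codons and the lysine codon after which the activation peptide is cut.
Prss1, Try4 and Try5: cctgtgGATGATGATGACAAGatcgttgga
Prss2: cctgtgGATGATGATGACAAGattgttgga
Try10: cctgtgGATGATGATGACAAGatagttgga
Prss3 and Gm10334: cccgtgGATGATGATGACAAGatcgttgga
Gm5771: ttccctgtgGATGATGATAAGatcgttgga
2210010C04Rik: ctgGATGATGATGATGACAAAattgttgga
1810009J06Rik: ccagctaacagtGATGACAAGattgttgga
Prss1, Prss2, Prss3, Try4, Try5, Try10 and Gm10334 have 4 aspartate codons in a row before the lysine. Gm5771 has 3 (chr6:41394667-41394696), 2210010C04Rik has 5 (chr6:41034366-41034395) and 1810009J06Rik has 2 (chr6:40966171-40966200). Gm2663 carries the same 30 bases as 1810009J06Rik.

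The microRNA that the KO mice lack is shown next, because its seed can be searched for in the members' transcripts. Its mature sequence, from RefSeq on GRCm38.p6 at chr11:28757018-28757039 on the plus strand, has the seed in capitals.
miR-216a-5p: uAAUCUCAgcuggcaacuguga
The 7 bases that pair with this seed, TGAGATT, were searched on the transcript strand. They occurred once each in Gm5771, Prss1, Prss3 and Gm10334, inside the coding sequence in exon 3 of 5, and in none of the transcripts of the other 6 members. The match sits in the same 30 bases in those 4 genes, with the 7 bases in capitals: at chr6:41395993-41396022 in Gm5771, chr6:41462535-41462564 in Prss1, chr6:41375098-41375127 in Prss3 (minus strand) and chr6:41443561-41443590 in Gm10334 (minus strand).
Gm5771, Prss1, Prss3 and Gm10334: ccgcatccaagTGAGATTgggggagcacaa
Of 985 other genes with a coding sequence of 700 to 800 bases, 45 (4.57%) hold the same 7 bases. The 4 genes are near copies of each other, so their matches are not independent, and a match is a string of letters and not a shown site. Past the stop codon the members' transcripts hold few bases to search, from 0 in Prss3 to 103 in 1810009J06Rik, except for 1367 in 2210010C04Rik.

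Coding sequence identity, computed from global alignments, sorts the members into groups. Prss3 and Gm10334 are 99.1% identical, Gm5771 and Prss1 97.6%, and the identities among these 4 genes run from 96.2 to 99.1%. Try4 and Try5 are 97.4% identical, and Try10 is closest to Try4 at 95.4%. Prss2, an anionic trypsinogen gene, is 88.5 to 91.6% identical to those 7 genes. 2210010C04Rik reaches 75.0 to 76.8% with them and with Prss2, and 1810009J06Rik reaches 69.9 to 72.4%. 1810009J06Rik and Gm2663 are 99.5% identical.

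**Figure D1:**
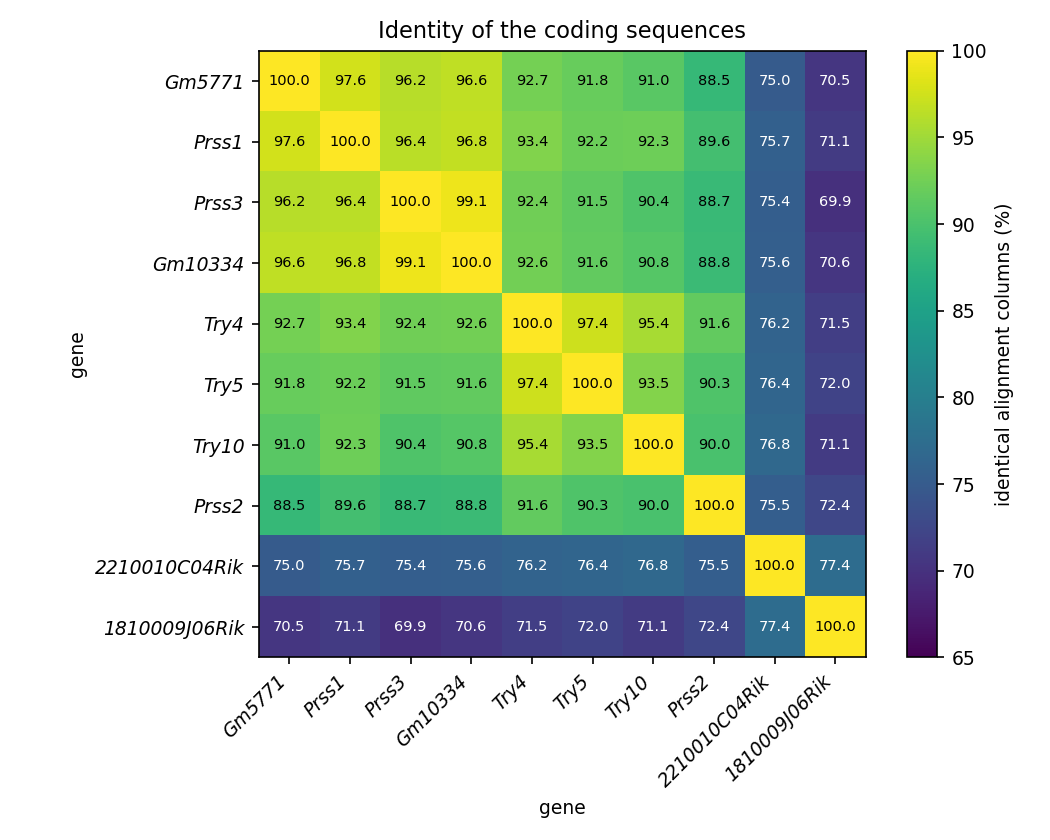
Percent identity of coding sequences for each pair of the 10 genes, with genes on both axes and the colour giving the identity in percent. Blocks of high identity join Gm5771, Prss1, Prss3 and Gm10334 (96.2 to 99.1%) and Try4 with Try5 (97.4%), and 2210010C04Rik and 1810009J06Rik stand apart from the other 8 (69.9 to 76.8%).

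Near copies share reads, which limits how well the counting program could split them. Salmon, the program the authors used, assigns reads that fit several transcripts by estimation. Of the 31-base words in each transcript, the share found in no other gene's transcript was 13.6% for 1810009J06Rik, 17.3% for Try4, 24.6% for Prss3, 26.8% for Gm10334, 28.6% for Gm5771 and 30.7% for Prss1. It was higher for Try5 (34.0%), Try10 (41.4%) and Prss2 (77.5%), and in 2210010C04Rik 2111 of 2112 words were its own. The split between Prss3 and Gm10334, between Gm5771 and Prss1, between Try4 and Try5 and between 1810009J06Rik and Gm2663 is therefore uncertain, and the sum of each pair is given with its members. The pair sums do not cover words shared beyond a pair. Try10 shared 38.6% of its words with Gm5409. With genes other than the members, Gm2663 and Gm5409, Prss3 and Gm10334 shared 61 words each, Try4 43 and Gm5771 33. Each member was quantified from 1 transcript except Try5, whose second transcript held 15.7 to 33.5 reads against 410970 to 607540 for the first.

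The 6 libraries held 20565387 to 23028718 estimated reads, and Mir216a had no transcript in the quantified set, so the deleted gene could not be checked. WT 1 stood apart in liver RNA, with Alb at 219 CPM (read counts scaled to a common library size, with TMM factors that correct for library composition) against 6.41 to 15.1 in the others. KO 1 stood apart in the Y-linked gene Ddx3y, at 0.141 CPM against 61.8 to 102. The labels give neither sex, litter nor batch, and no value within a batch could be had. Summed acinar markers, 8 genes, were 143659 to 207172 CPM in WT and 191710 to 241289 in KO, so the labelled tissue was marked as such in every library. In whole tissue, fewer cells of a type and less RNA per cell cannot be told apart. Markers of dividing cells were lower in each KO library than in each WT library for 6 of 6 genes, against 10.3% of all tested genes. Their summed level was 673 to 840 CPM in WT and 522, 327 and 196 in KO 1 to 3. Summed endocrine markers were 6651 to 8539 CPM in WT and 5801 to 6376 in KO, also without overlap. Ins1, Ins2 and Sst, 3 of the 6 genes, were lower in each KO library, against the same 10.3% of all tested genes. Summed intestine markers, 4 of 6 genes tested, were low in both groups and did not overlap, at 20 to 26.9 CPM in WT and 31.9 to 35.5 in KO. Gene by gene only Lgals4 did not overlap, at 7.88 to 9.339 CPM in WT and 15.54 to 23.33 in KO. Vil1, Muc2 and Apoa4 overlapped, and Vil1 had a lower mean in KO (log2 fold change -0.32). The part of these cell types in the values below was not tested. The other 7 marker sums overlapped between the groups.

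Summed over the 10 genes, trypsinogen RNA was 85015, 73669 and 92637 CPM in WT and 64244, 76714 and 53158 in KO. KO 2 lay above the lowest WT library, so the groups overlapped. The means were 83774 ± 9545 CPM in WT and 64705 ± 11785 in KO (SD, n = 3), or 77.2% of WT, a log2 ratio of -0.37. The cluster took 8.43% of all counts in WT (SD 0.357, n = 3) and 6.36% in KO (SD 0.86, n = 3), and on this scale each KO library (5.4 to 7.06%) lay below each WT library (8.02 to 8.68%). Without KO 1 the log2 ratio was -0.37, without WT 1 it was -0.36, and without KO 3 it was -0.25.

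Gene by gene, 10 of 10 members had a lower mean in KO, against 48.8% of all tested genes. In 6 of 10 each KO library lay below each WT library, against 10.3% of all genes and 20% of the 60 genes with a mean of at least 1000 CPM. In 0 of 10 each KO library lay above each WT library, against 9.07% of all genes. Nothing is read from these counts, because the list was chosen on this contrast. edgeR's quasi-likelihood test with Benjamini-Hochberg adjustment called 0 of 10 members and 0% of 15805 genes at an adjusted p under 0.05, while 1996 genes (12.6%) had an unadjusted p under 0.05. DESeq2 called 5 of 10 members lower, against 2.18% of the genes it adjusted (3.13% in both directions). With limma-voom 1 gene was called higher and 1 lower over the whole table, and members among them were not counted. The members' log2 fold changes had a median of -0.60 and ran from -1.76 to -0.08, and the median over all tested genes was 0.01.

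**Figure D2:**
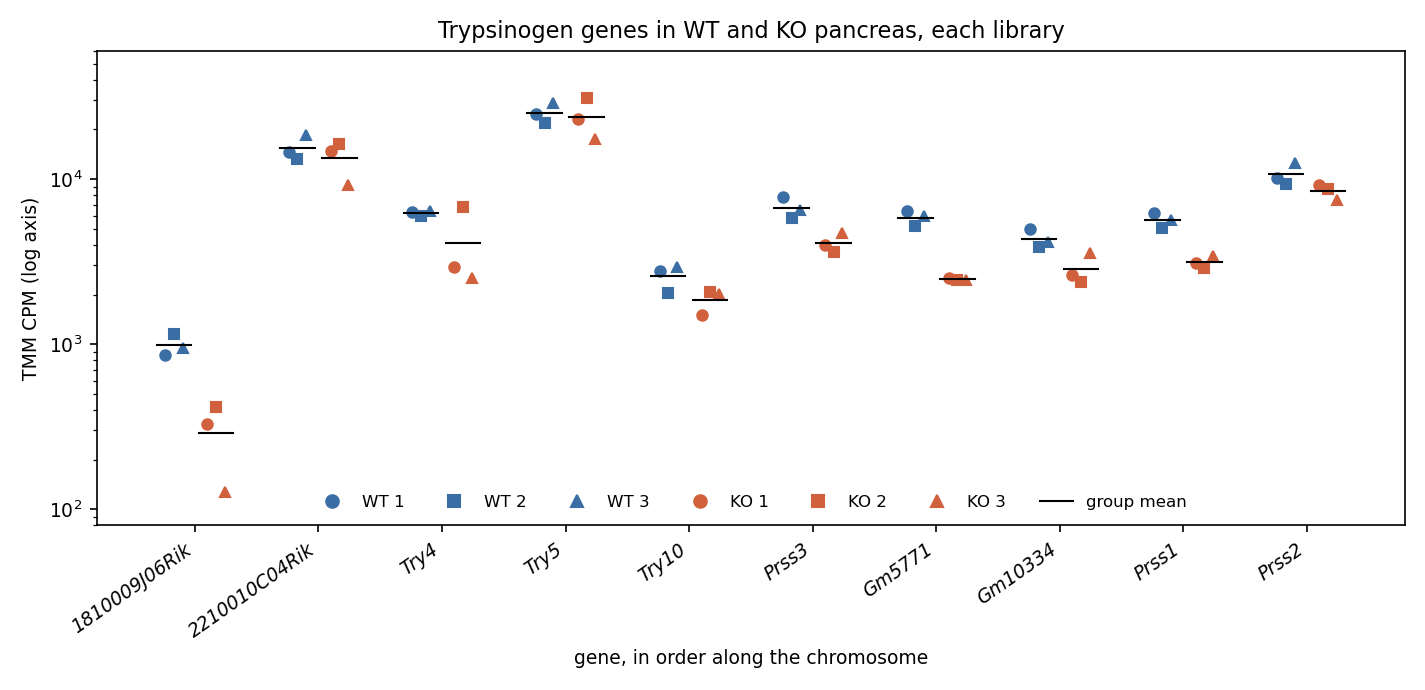
TMM-scaled CPM of the 10 genes on a log axis, with 1 point per library, WT in blue and KO in orange, and a bar at each group's mean. Gm5771 is near 2478 CPM in KO and 5848 in WT with a wide gap, while the points of Try5 and 2210010C04Rik overlap.

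The 4 genes of the Prss1 type were lower in KO in each library. Gm5771, a gene annotated as protein coding with a shortened run of aspartate codons, was at 6382, 5179 and 5983 CPM in WT and 2534, 2436 and 2462 in KO. The KO libraries lay within a narrow band, far below the lowest WT library. The means were 5848 ± 613 and 2478 ± 51.0 CPM (SD, n = 3), with a log2 fold change of -1.24 ± 0.13 (SE), which leaves 42.4% of the WT level.

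Prss1, which encodes a trypsinogen and shares its symbol with the human gene altered in hereditary pancreatitis, was at 6216, 5058 and 5662 CPM in WT and 3120, 2903 and 3426 in KO. The groups did not overlap, and the means were 5645 ± 578.8 and 3150 ± 263 CPM (SD, n = 3), a log2 fold change of -0.84 ± 0.14 (SE). Added together, Gm5771 and Prss1 were at 49% of the WT level in KO, with 10237 to 12598 CPM in WT and 5339 to 5889 in KO.

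Prss3, another trypsinogen gene, was at 7803, 5819 and 6514 CPM in WT and 4002, 3643 and 4745 in KO. Its near copy Gm10334 was at 4997, 3872 and 4185 CPM in WT and 2626, 2394 and 3573 in KO. In both genes WT 1 was the highest library and KO 2 the lowest, and KO 3 came closest to WT. The log2 fold changes were -0.70 ± 0.17 for Prss3 and -0.60 ± 0.18 for Gm10334 (SE), and their sum was at 63.2% of WT. The 4 genes together were at 25399, 19929 and 22344 CPM in WT and 12283, 11375 and 14207 in KO, a log2 ratio of -0.84.

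1810009J06Rik, the member with the fewest reads, had the greatest fold difference of the 10. It was at 863.1, 1148 and 951.7 CPM in WT and 328.7, 418.6 and 126.4 in KO. The groups did not overlap, and KO 3 was well below the other KO libraries. The means were 987.7 ± 145.9 and 291.2 ± 149.7 CPM (SD, n = 3), a log2 fold change of -1.76 ± 0.38 (SE), and without KO 3 it was -1.40. Gm2663, its near copy, was at 1743, 1702 and 1850 CPM in WT and 683.6, 1047 and 472 in KO, with a log2 fold change of -1.27 ± 0.26 (SE). Their sum, which does not depend on how shared reads were split between them, was 2606, 2850 and 2801 CPM in WT and 1012, 1466 and 598.4 in KO, or 37.3% of WT.

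Prss2 was at 10127, 9379 and 12596 CPM in WT and 9164, 8723 and 7507 in KO. The groups did not overlap, but the lowest WT and the highest KO library were close, and the log2 fold change was -0.34 ± 0.17 (SE), or -0.20 without WT 3. Try10, a gene of the Try4 type, was at 2790, 2051 and 2949 CPM in WT and 1494, 2062 and 2021 in KO. WT 2 lay inside the KO range, and the log2 fold change was -0.48 ± 0.18 (SE).

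Try4 was split by library within the KO group. It was at 6302, 5979 and 6430 CPM in WT and 2954, 6829 and 2508 in KO. KO 2 was above all 3 WT libraries, while KO 1 and KO 3 were well below them. The log2 fold change was -0.61 ± 0.35 (SE). Without KO 2 it was -1.19, without KO 3 it was -0.35 and without KO 1 it was -0.42. Gm5771 showed no such split, at log2 differences from the WT mean of -1.21, -1.26 and -1.25 in KO 1 to 3, where Try4 had -1.08, 0.13 and -1.31.

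Try5, the member with the most reads, was at 24834, 21990 and 28750 CPM in WT and 23170, 30877 and 17574 in KO. The KO libraries spread to both sides of the WT range, and the log2 fold change was -0.08 ± 0.24 (SE). Try4 and Try5 together were at 31136, 27969 and 35180 CPM in WT and 26124, 37707 and 20082 in KO, which also overlapped. 2210010C04Rik, which encodes a cationic trypsinogen and can be counted almost free of shared words, was at 14699, 13193 and 18616 CPM in WT and 14850, 16429 and 9213 in KO. KO 1 and KO 2 lay within the WT range and KO 3 below it, with a log2 fold change of -0.20 ± 0.25 (SE). Without KO 3 the value turned to 0.10 for Try5 and 0.01 for 2210010C04Rik, and without WT 3 it was 0.03 for Try5 and -0.04 for 2210010C04Rik. The pseudogene Gm5409 was at 1.884 to 3.56 CPM in WT and 1.71 to 2.744 in KO.

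**Figure D3:**
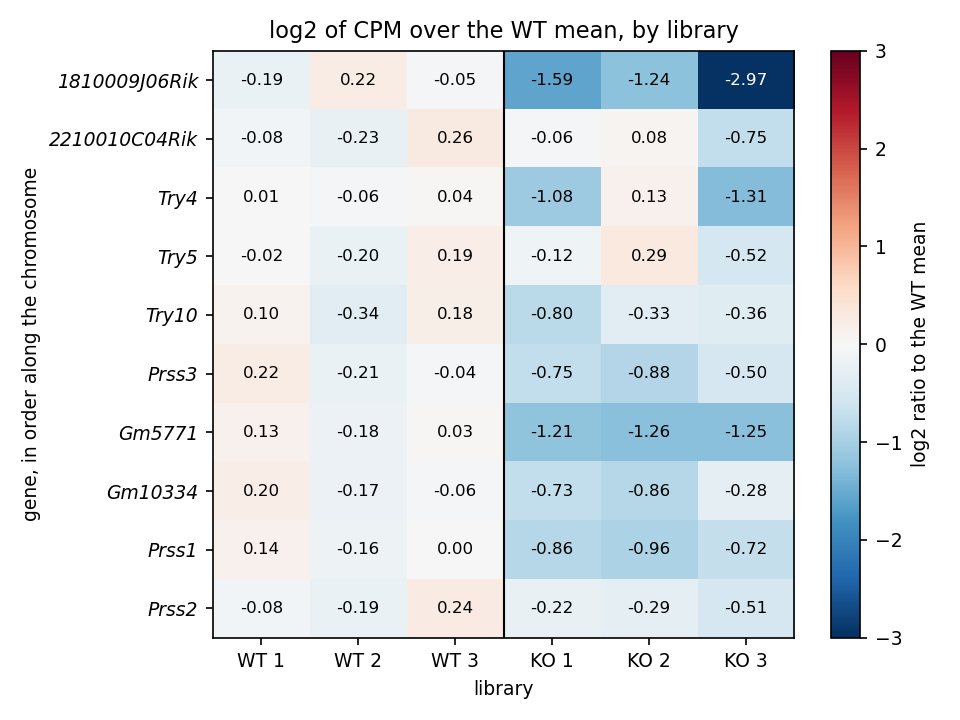
Log2 difference of each library from the WT mean for each of the 10 genes, with libraries as columns, genes as rows and colour as the log2 difference. The KO cells of Gm5771 are even (-1.21, -1.26 and -1.25), whereas those of Try4 (-1.08, 0.13 and -1.31) and Try5 (-0.12, 0.29 and -0.52) differ between libraries.

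Across the 6 libraries the pairs of members ranged from near-parallel to unrelated, and near copies were not always the closest. Pearson's r of log2 CPM was 0.99 between Gm5771 and Prss1, 0.98 between Prss1 and Prss3 and 0.98 between Prss3 and Gm10334, and the lowest among these 4 genes was 0.86, between Gm5771 and Gm10334. It was 0.78 between Try4 and Try5 and 0.64 between Try4 and Try10, which are also near copies. Try5 and 2210010C04Rik had an r of 0.93, and their coding sequences are 76.4% identical. For other members of different sequence groups it was 0.85 for Gm5771 and 1810009J06Rik, 0.83 for Try4 and 1810009J06Rik, 0.81 for Prss2 and 2210010C04Rik, 0.23 for Gm5771 and Try5, -0.03 for Prss3 and Try5 and -0.20 for Gm10334 and Try5. These values describe 6 libraries that hold both genotypes, and near copies share reads, the part of which in r was not tested.

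Levels of different genes were compared per length, as TPM, a scale that divides by transcript length before scaling each library to the same total, which the authors deposited. In WT the order was Try5 (47044 ± 1659 TPM), Prss2 (19566 ± 1038), Prss3 (12266 ± 2044), Try4 (11728 ± 811.4), Gm5771 (11067 ± 1151), Prss1 (10559 ± 1221), 2210010C04Rik (10196 ± 1006), Gm10334 (7323 ± 1155), Try10 (4397 ± 519.3) and 1810009J06Rik (1577 ± 362.5), each as mean and SD with n = 3. Neighbours from Prss3 to 2210010C04Rik overlapped between libraries, and the other neighbours did not. In KO Try5 and Prss2 still led, at 45902 ± 9572 and 16103 ± 1904 TPM. 2210010C04Rik was then in place 3 and Gm5771 in place 8, at 9022 ± 2193 and 4861 ± 446.4 TPM. On this scale the sum of the 10 members was 142001, 131609 and 133559 TPM in WT and 109483, 115636 and 93857 in KO, with no overlap, at 78.3% of WT.

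The make-up of the trypsinogen pool was read as each member's share of the summed TPM. The shares of Try5, Gm5771 and 1810009J06Rik did not overlap between the groups. Try5 held 33.6, 34.3 and 36.2% in WT and 43.1, 47.4 and 38.1% in KO, so that each KO library lay above each WT library, by 8.17 percentage points in the mean. Gm5771 held 8.7, 8.16 and 7.58% in WT and 4.75, 3.77 and 5.35% in KO, and 1810009J06Rik held 1.17 ± 0.303% and 0.417 ± 0.167% (SD, n = 3). Shares sum to 100%, so a lower share of some members raises that of others without any change in their RNA, and the CPM of Try5 overlapped between the groups. For the other 7 members the shares overlapped. Among them Prss1 held 7.77 ± 0.646% in WT and 5.85 ± 1.46% in KO, Prss2 14.4 ± 1.08% and 15.2 ± 1.9%, and Try4 8.65 ± 0.636% and 7.14 ± 2.9% (SD, n = 3). The split of reads between Try4 and Try5 is uncertain, and so is the share of each. Their summed TPM was 57457 to 59750 in WT and 40836 to 66888 in KO, which overlapped. Summed TPM of Gm5771 with Prss1 and of 1810009J06Rik with Gm2663 did not overlap. Shares of these pairs were not computed.

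**Figure D4:**
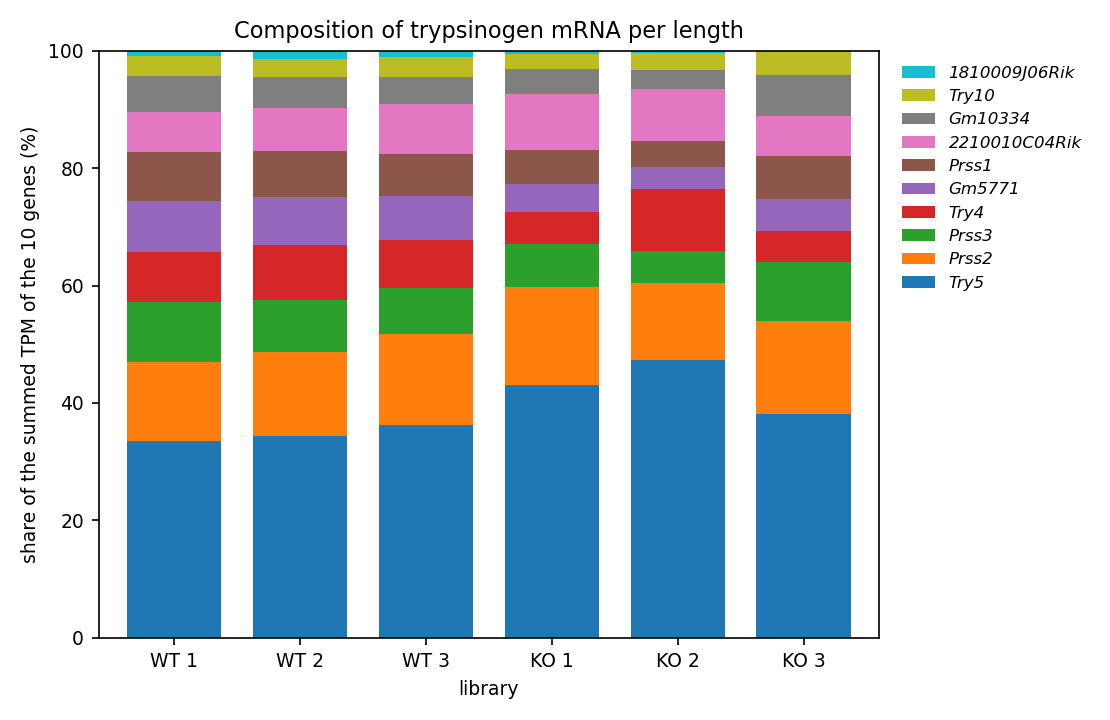
Share of each of the 10 members in their summed TPM, as stacked bars from 0 to 100% with 1 bar per library. The Try5 segment is 33.6 to 36.2% in the WT libraries and 38.1 to 47.4% in the KO libraries, and the Gm5771 segment is 7.58 to 8.7% and 3.77 to 5.35%. The split of reads between Try4 and Try5 and between Gm5771 and Prss1 is uncertain.

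Promoter sequence was compared among members, since Gm5771, Prss1, Prss3 and Gm10334 followed each other across libraries. RefSeq promoters on GRCm38.p6, 250 bases before to 50 after the start, were found for 7 of 10 members, and Try5, Try10 and 1810009J06Rik had no entry. The upstream 250 bases were aligned with free ends. Gm5771 and Prss1 were 98.3% identical over 230 columns and Prss3 and Gm10334 97.0% over 233, whereas the 2 pairs aligned with each other at 54.6 to 58.1%. Between the same 2 pairs coding identity was 96.2 to 96.8%. There r across libraries was 0.98 for Prss1 and Prss3, 0.94 for Gm5771 and Prss3, 0.93 for Prss1 and Gm10334 and 0.86 for Gm5771 and Gm10334. The Try4 promoter aligned at 66.7% with that of Gm5771 and 68.1% with that of Prss1, where r was 0.63 and 0.52. These r come from libraries of both genotypes and from genes that share reads, and the part of the promoter in them was not tested. TATAAA, the core of the TATA box, and CACCTG, a form of the E-box that basic helix-loop-helix factors bind, were searched on both strands and cannot overlap each other. Each of the 7 promoters held both, against 13.6% of 32851 promoters for TATAAA and 20.2% for CACCTG. Near copies share promoter sequence, so these matches are not independent. TATAAA began 11 bases before the annotated start in Gm5771 and Gm10334, 16 in Prss2 and 28 to 31 in the others. The 30 bases around TATAAA, in capitals, were these.
Gm5771 (chr6:41392333-41392362) and Prss1 (chr6:41458887-41458916): cctgaattggggTATAAAggcaggcttcca
Try4 (chr6:41302229-41302258): cctgaactggggTATAAAggcaggctttca
Prss3 (chr6:41377624-41377653, minus strand): cctccttgaggaTATAAAggtctgcttccc
Gm10334 (chr6:41446091-41446120, minus strand): cctccttgaggaTATAAAggtctgctcccc
Prss2 (chr6:41521748-41521777): tgtttagggaacTATAAAgacaggcactct
2210010C04Rik (chr6:41035522-41035551, minus strand): aagacatgaaggTATAAAtagctgtggagg
Gm5771 and Prss1 each held 2 CACCTG matches, and only the one nearer the start is printed, not those at 163 and 183 bases before it. The matches of Prss2 and 2210010C04Rik are not printed either. The CACCTG matches below, in capitals and as CAGGTG where they lie on the other strand, stood in shared surroundings within each pair of near copies.
Gm5771 (chr6:41392268-41392297) and Prss1 (chr6:41458822-41458851): aggggaaacccaCAGGTGtgcttgtataga
Try4 (chr6:41302164-41302193): aggagaaaaccaCAGGTGtgcttgtgaaga
Prss3 (chr6:41377739-41377768, minus strand): aacttttctagaCACCTGaagtccaaaaag
Gm10334 (chr6:41446206-41446235, minus strand): aacttttctagaCACCTGaaatccaaaaag
A match is a description of letters in the window and shows no binding.

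The other genes of the trypsin pathway were read from lists, in which DESeq2, like edgeR, called 0 genes in either direction. Among 12 zymogens that trypsin activates, edgeR called 0 in either direction, 7 had a higher and 5 a lower mean in KO, and the median log2 fold change was 0.07, from -1.06 to 0.36. The median turned to -0.19 without KO 2 and to -0.03 without WT 2. Ctrb1, the main chymotrypsinogen gene, stood at 80456 ± 15822 CPM in WT and 84656 ± 5332 in KO (SD, n = 3), with a log2 fold change of 0.07 ± 0.23 (SE, edgeR adjusted p = 0.934). Cela2a, a pancreatic elastase gene, had -0.14 ± 0.21, the procarboxypeptidase gene Cpb1 -0.16 ± 0.21 and the procolipase gene Clps 0.17 ± 0.17 (SE).

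Among 12 enzymes that are not proteases, 10 were tested, 0 were called, 7 had a higher mean and the median was 0.40. Without KO 2 this median was 0.12, and without WT 2 it was 0.26. The amylase gene Amy2a5 was at 94301, 65535 and 93843 CPM in WT and 99055, 133942 and 121294 in KO. Each KO library lay above each WT library, in the direction opposite to the members, with a log2 fold change of 0.48 ± 0.26 (SE, edgeR adjusted p = 0.495). The lipase gene Pnliprp1 had 0.18 ± 0.23 and the amylase gene Amy2a4 0.69 ± 0.38, with overlapping groups. The amylase genes are near copies of each other, so the split of reads between them is uncertain. Cel, the bile salt-stimulated lipase gene, lay lower in each KO library, at 14065 ± 2494 CPM in WT and 10856 ± 826.4 in KO (SD, n = 3, log2 fold change -0.37 ± 0.18 SE, edgeR adjusted p = 0.447).

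The 9 trypsin inhibitors all had a lower mean in KO, with 0 called and a median log2 fold change of -1.29. That median rested on WT 1, the library with the high Alb level, and without it the median was 0.14. Several of the 9 are plasma inhibitors made by liver, among them Serpina1b and Pzp. Spink1, the acinar inhibitor that is stored with trypsinogen, was at 1127, 1139 and 1348 CPM in WT and 903.3, 1051 and 720.2 in KO. Its groups did not overlap, at 1204 ± 124 and 891.6 ± 165.9 CPM (SD, n = 3, log2 fold change -0.43 ± 0.16 SE, edgeR adjusted p = 0.311). Serpini2, a serpin made in pancreas, had -0.28 ± 0.22 (SE) with overlap.

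Of the genes that activate or degrade trypsinogen, 4 of 5 were tested and 0 were called, with a median of 0.07, or -0.04 without KO 2. The enteropeptidase gene Tmprss15 was not tested because of low counts. Ctsb, the cathepsin that can activate trypsinogen, had -0.03 ± 0.11, Ctsl, a cathepsin that can degrade it, 0.05 ± 0.12, Ctsd 0.15 ± 0.09 and the trypsinogen-degrading chymotrypsin gene Ctrc 0.10 ± 0.37 (SE). Among protease-activated receptors 3 of 4 were tested and 0 called, and F2rl1, the receptor that trypsin cleaves, had -0.20 ± 0.22 (SE). Among 11 acinar transcription factors 0 were called, 5 had a higher and 6 a lower mean and the median was 0.00. Rbpjl, the pancreatic partner of Ptf1a, had -0.10 ± 0.20, Xbp1, a factor of secretory cells, 0.12 ± 0.14, and the basic helix-loop-helix factors Tcf12 and Bhlha15 had 0.11 ± 0.10 and 0.43 ± 0.29 (SE).

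**Figure D5:**
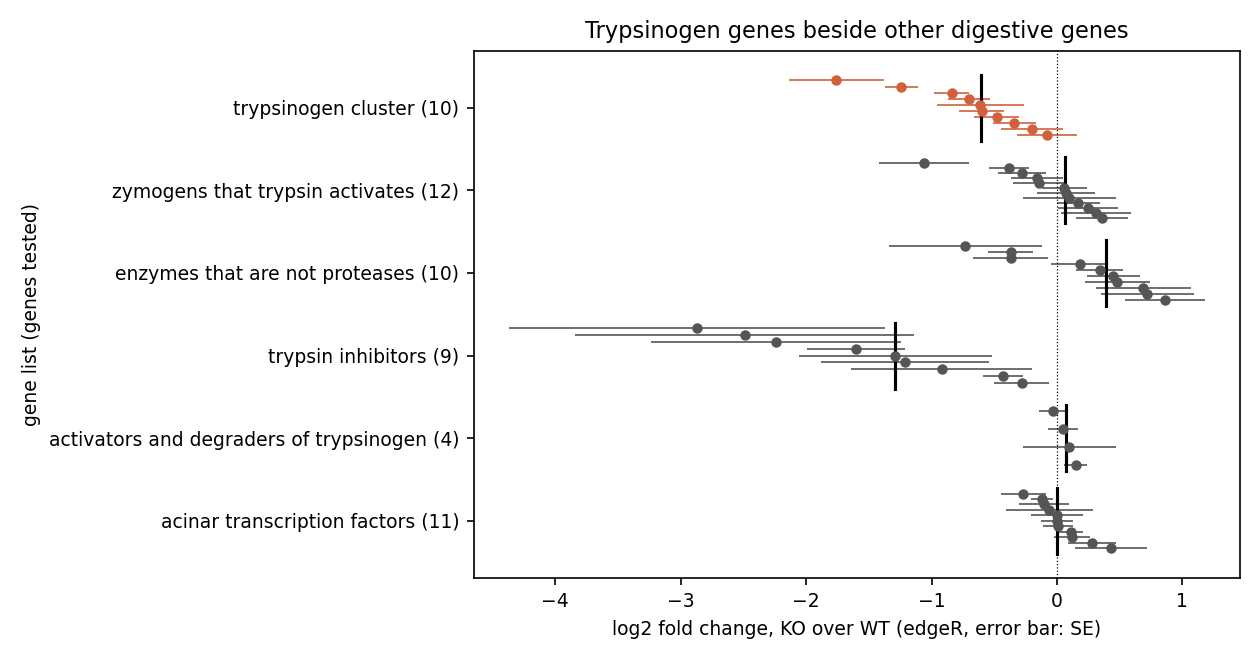
Log2 fold change of KO over WT for each tested gene of the members and of the pathway lists other than the receptors, with 1 point per gene, its SE as a horizontal line, a bar at each list's median and a line at 0. The members lie below 0 (median -0.60), the zymogens that trypsin activates lie around 0 (median 0.07) and the enzymes that are not proteases lie mostly above it (median 0.40). Without KO 2 the last 2 medians are -0.19 and 0.12.

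Genes whose log2 CPM followed the summed members most closely over the 6 libraries were Arf4 (Pearson's r = 0.985), Sec23b (0.984), Tm9sf3 (0.979), Rpn2 (0.979) and Rap1a (0.978), among 2833 genes with a mean of at least 50 CPM. For 1810009J06Rik, the member with the greatest fold difference, they were Mcm7 (0.977), Mcm6 (0.977), Mcm2 (0.976), Eno1 (0.974) and Mcm5 (0.972), of which Mcm2 is on the list of dividing cell markers. Mcm7 was at 79.6, 84.61 and 87.91 CPM in WT and 57.66, 51.68 and 34.34 in KO. The groups of 1810009J06Rik did not overlap, so with 6 libraries in 2 groups a gene that is lower in KO gains a high r with it. The cluster sum overlapped between the groups, and Arf4 too was higher in KO 2 (162.2 CPM) than in WT 2 (155.1 CPM). No test was made of any r.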

How the data were processed

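Bulk RNA-seq libraries of whole pancreas from 3 WT and 3 KO mice were grouped by the genotype label. Per the labels' protocols, a stranded mRNA kit was used. Per the submitters' processing notes, bcl2fastq, Salmon 0.13.1, DESeq2 1.24.0 and the build mm10 were used. Which transcript set was quantified is not given in those notes, the labels or the file headers. For each library the authors deposited estimated counts, TPM and effective lengths for 116248 transcripts. The other value the authors deposited is a scaled signal for 17324 genes, of which 0.566 to 0.791% were whole, and it entered 1 alternative only.

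Of the transcripts, 115995 matched GENCODE M21 by versioned identifier. Estimated counts were summed to 35527 genes and rounded, with Python 3.11.15 and pandas 2.3.3. Genes were tested with edgeR (version 4.0.16, R 4.3.3) by its quasi-likelihood method, using TMM factors, filterByExpr's default filter and Benjamini-Hochberg adjustment over 15805 genes, called under 0.05. The SE of a log2 fold change was derived from this test, as its absolute value divided by the square root of the F statistic. The biological coefficient of variation was 18.4%. Scripts were tested on simulated data. Sequence alignments used Biopython 1.88. Alternatives used DESeq2 1.42.0 and limma 3.58.1.

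The members and lists were chosen with earlier results of these data known. Named were all members, up to 4 genes of highest mean CPM per list, and the 5 genes most correlated with the cluster sum and with the member of largest fold change. Beside them, the measured neighbours and genes that show a library standing apart were named.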

Additional observations from a re-analysis of the deposited data

How the results depend on the processing

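No gene was called by edgeR over the whole table. DESeq2 called 132 genes higher and 304 lower, limma-voom 1 and 1, edgeR without the filter on low counts 1 lower, and edgeR without WT 1 and KO 2, the libraries with the most erythroid RNA, 1 higher and 1 lower. Leaving out 1 library gave 0 to 87 genes higher and 0 to 275 lower, both upper values without KO 1. The log2 ratio of the cluster sum stayed negative in all 14 alternatives, from -0.52 to -0.25. Over 15 alternatives the log2 fold change of Gm5771 ran from -1.32 to -1.16, Prss1 from -0.92 to -0.72, Prss3 from -0.81 to -0.50, Gm10334 from -0.79 to -0.38, 1810009J06Rik from -2.21 to -1.40, Try10 from -0.63 to -0.35 and Prss2 from -0.43 to -0.20. Try4 ran from -1.19 to -0.35, Try5 from -0.32 to 0.10 and 2210010C04Rik from -0.41 to 0.01, and the last 2 were negative in 13 and 14 of 15. No paired analysis was possible because the labels give no shared replicate numbers. With 3 libraries a group, the spread between mice and the splitting of reads between near copies limit the single values, and depth does not, since the members held at least 2955 reads in each library.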

Other observations

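Few of the genes around the trypsinogens were measured. From 200 kb before the first to 200 kb after the last member GENCODE M21 annotates 92 genes. Apart from the members, Gm2663 and Gm5409 there are 80, and 8 of these passed the filter on low counts. Of 53 T cell receptor segments 2 passed, Trbc1 and Trbc2, and Trbc2 was at 6.533 to 14.95 CPM in WT and 5.489 to 6.97 in KO, with a log2 fold change of -0.63 ± 0.30 (SE, edgeR adjusted p = 0.444). Trpv6, an epithelial calcium channel gene, lies after the last gene of the cluster, with Trbc1, Trbc2 and Ephb6 among the genes in between. Trpv6 was at 10.85, 17.64 and 17.8 CPM in WT and 2.449, 6.099 and 5.687 in KO, and the groups did not overlap. Its log2 fold change was -1.70 ± 0.34 (SE, edgeR adjusted p = 0.205). Mgam, the maltase-glucoamylase gene on the other side, was at 3.527 to 4.454 CPM in WT and 0.9835 to 2.439 in KO, with a log2 fold change of -1.18 ± 0.33 (SE, edgeR adjusted p = 0.246). Ephb6, a receptor gene beside Trpv6, had -0.06 ± 0.23 and Gm4744 0.45 ± 0.48 (SE), both with overlapping groups. Gm37301, an unprocessed pseudogene between Prss1 and Prss2, was at 1.283 to 2.132 CPM in WT and 0.7115 to 1.036 in KO, without overlap, with a log2 fold change of -0.89 ± 0.32 (SE, edgeR adjusted p = 0.314). Kel, a blood group gene expressed in erythroid cells, had -0.22 ± 0.77 (SE), and KO 2, a library rich in erythroid RNA, was its highest at 14.08 CPM. Trbc1 had -0.20 ± 0.55 (SE).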
